A study of Mus musculus with 18 samples.

Results

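Prm1, Padi4 and Tspan32 are 3 genes normally read in sperm or blood cells whose probe sets gave a higher signal in glomerular preparations of mice that lack PTIP in podocytes. They were selected on that difference between the genotypes, and Prm1 was measured by 2 probe sets and each of the others by 1, so they make up 4 of the 58 probe sets and 3 of the 41 named genes of the deposited table. All 58 probe sets were themselves chosen by the authors for a difference between PTIP- and PTIP+ on the same arrays. The gain is therefore given as a description with no test, and the questions asked are whether the 3 gains rise and fall together across PTIP- animals and whether they mirror what remains of Wif1, whose RNA was decreased.

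The data are 18 Affymetrix mouse arrays, 1 for each animal, from 8 PTIP+ and 10 PTIP- littermates. Values are log2 expression after RMA, the robust multi-array average, so a difference of 1 is a doubling. PTIP- mice were ptip fl/fl or ptip fl/- with a Cre transgene, and PTIP+ mice were ptip fl/fl or ptip fl/- without it. The floxed allele gives normal PTIP protein, and the labels do not say which animals carried 1 null allele. The transgene was carried by every PTIP- animal and by no PTIP+ animal, so effects of the transgene and of the deletion cannot be told apart. Kidneys were taken at 4 weeks of age and glomeruli were caught on a sieve, so podocytes were measured with the other cells of the glomerulus. The developmental stage in the labels runs from 1 to 18 months, another value for each animal, which conflicts with that age. Animal numbers in the scan names fall into 3 series, which the labels do not call batches. Series 1 holds 3 PTIP+ and 3 PTIP- animals, series 2 holds 2 and 4, and series 3 holds 3 and 3. No row of the table measures the podocyte, leukocyte, red cell, endothelial or tubule markers that were looked up, so the tissue and its cell make-up could not be checked, and a change in the number of cells of a type cannot be told apart from a change of RNA in each cell.

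PTIP, encoded by Paxip1, is a cofactor of complexes that methylate histone H3 at lysine 4, a mark of active promoters. Protamine 1, the product of Prm1, replaces histones when the DNA of spermatids is packed into the sperm head. Padi4 encodes peptidylarginine deiminase 4, which converts histone arginines to citrulline and is best known from neutrophils, and Tspan32 encodes a tetraspanin, a membrane protein of blood cells. Wif1 encodes a secreted protein that binds Wnt ligands and inhibits their signalling.

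The promoters of the 3 genes are shown because these genes changed in the same direction, with that of Wif1 beside them because it changed in the other. All 3 members matched the RefSeq promoter table of GRCm38.p6, which holds 250 bases before and 50 after a start. That start is the outer end of the gene in the RefSeq gene table for Prm1 and Wif1, and lies 36 bases inside the gene for Padi4 and 139 bases inside it for Tspan32. Each sequence is printed 5′ to 3′ on the strand of the gene, and the capitals mark TATAA on either strand. The windows are chr16:10796774-10797073 on the minus strand for Prm1, chr4:140774154-140774453 on the minus strand for Padi4, chr7:143004796-143005095 on the plus strand for Tspan32 and chr10:121033754-121034053 on the plus strand for Wif1.
Prm1: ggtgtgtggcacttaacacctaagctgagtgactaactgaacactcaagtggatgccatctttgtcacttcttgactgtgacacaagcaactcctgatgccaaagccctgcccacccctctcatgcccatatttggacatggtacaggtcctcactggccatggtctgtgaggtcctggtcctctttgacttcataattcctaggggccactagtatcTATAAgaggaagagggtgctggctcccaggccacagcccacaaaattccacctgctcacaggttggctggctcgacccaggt
Padi4: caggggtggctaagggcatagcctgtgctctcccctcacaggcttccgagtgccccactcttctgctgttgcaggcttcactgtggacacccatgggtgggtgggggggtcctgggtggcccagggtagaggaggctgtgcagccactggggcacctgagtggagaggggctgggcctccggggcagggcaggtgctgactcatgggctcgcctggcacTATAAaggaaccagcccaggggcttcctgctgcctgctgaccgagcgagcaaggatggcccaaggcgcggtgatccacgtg
Tspan32: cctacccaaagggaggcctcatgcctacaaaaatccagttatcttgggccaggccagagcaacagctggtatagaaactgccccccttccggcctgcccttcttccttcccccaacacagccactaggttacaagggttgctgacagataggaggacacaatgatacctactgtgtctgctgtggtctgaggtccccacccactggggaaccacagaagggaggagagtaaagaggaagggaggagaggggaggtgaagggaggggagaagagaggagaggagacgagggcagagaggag
Wif1: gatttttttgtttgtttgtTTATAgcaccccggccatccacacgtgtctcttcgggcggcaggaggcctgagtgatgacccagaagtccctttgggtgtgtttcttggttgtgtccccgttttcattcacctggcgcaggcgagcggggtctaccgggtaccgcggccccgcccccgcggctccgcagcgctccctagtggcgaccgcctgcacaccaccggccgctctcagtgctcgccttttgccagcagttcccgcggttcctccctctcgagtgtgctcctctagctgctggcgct

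TATAA began 32 bases before the start of the table in Prm1 and 31 bases before it in Padi4, in both on the strand of the gene, and that of Padi4 lies inside the gene's outer end. In Wif1 it began 231 bases before the start, on the opposite strand, and Tspan32 held none. Of all 32851 promoters of that length, 24.9% held TATAA on either strand. GGGCGG, the core of a GC box, was present in Wif1, at 2 places, and in none of the members, against 35.7% of all promoters. TGACG, part of a cyclic AMP response element, was in none of the 4, against 20.8% of all promoters. CACGTG, an E-box, was in Padi4 and Wif1, against 7.15% of all promoters. The window of Prm1 held 1 CG dinucleotide, that of Tspan32 held 2, that of Padi4 held 8 and that of Wif1 held 25, where the median of all promoters is 7. A match of letters is a description of the window and does not show that a factor binds there.

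The signal of the Prm1 probe sets went from the lowest values of the table to a high level. Its probe set 1437054_x_at ranged from 2.83 to 5.64 in the 8 PTIP+ animals, with a median of 3.31, and from 7.72 to 10.11 in the 10 PTIP- animals, with a median of 9.30. Its probe set 1439379_x_at ranged from 2.28 to 4.36 in PTIP+ animals, with a median of 2.56, and from 7.42 to 9.59 in PTIP- animals, with a median of 9.03. The genotypes did not overlap for either probe set. The lowest value of the whole table, 2.28, is that of 1439379_x_at in PTIP+ replicate 7, and so near the floor of the array RMA values compress differences. Among PTIP- animals the Prm1 signal still differed 5.23-fold between the lowest and the highest animal for 1437054_x_at and 4.50-fold for 1439379_x_at. The "x" in the name of such a probe set says that some of its probes can also bind other transcripts. Some Cre constructs end in the polyadenylation sequence of mouse protamine 1. Probe sequences and the 3′ end of the transgene's RNA are not given in the sources used here, so whether these probe sets read RNA of the transgene, which every PTIP- animal carries, was not tested. Each Prm1 value in what follows is the signal of these probe sets.

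Padi4, read by probe set 1422760_at, had a tight low level in PTIP+ animals and a wide one in PTIP- animals. It ranged from 4.19 to 5.09 in PTIP+ animals, with a median of 4.38, and from 5.17 to 7.37 in PTIP- animals, with a median of 6.55. The genotypes did not overlap, but the gap was small: the lowest PTIP- animals were replicate 7 at 5.17 and replicate 8 at 5.35, next to PTIP+ replicate 5 at 5.09. The SD was 0.32 over PTIP+ animals and 0.78 over PTIP- animals.

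Tspan32, read by probe set 1418398_a_at, spread widest of the members among PTIP- animals. It ranged from 4.06 to 6.09 in PTIP+ animals, with a median of 5.52, and from 5.71 to 9.48 in PTIP- animals, with a median of 8.06, a 13.6-fold range within that genotype. The genotypes overlapped, because PTIP- replicates 6 and 7 of series 2 were low: replicate 7, at 5.71, lay below the 3 PTIP+ animals of series 3, at 5.77, 5.97 and 6.09, and replicate 6, at 5.95, below 2 of them. The lowest animals of both genotypes were of series 2: its PTIP+ animals were at 4.06 and 4.20 and 3 of its 4 PTIP- animals at 5.71, 5.95 and 6.45, while the fourth, replicate 4, was at 8.01, near the median. Within each series every PTIP- animal was above every PTIP+ animal, for Tspan32 and for the other members.

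Of the 58 probe sets, 8.62% (5) were higher in PTIP- animals with no overlap between genotypes, among them 3 of the 4 probe sets of the members, and 25.9% (15) had no overlap in either direction. Since the members were chosen on this contrast, nothing is read from these counts. The log2 difference between PTIP- and PTIP+ in the array-weighted fit was 6.20 (SE 0.25) and 5.69 (SE 0.28) for the Prm1 probe sets 1439379_x_at and 1437054_x_at, 2.68 (SE 0.32) for Tspan32 and 2.13 (SE 0.24) for Padi4. For Prm1 the PTIP+ means lie near the floor, where differences are compressed, so the size of its differences is not exact. The next increases in that fit were those of Lrtm2, at 1.78 (SE 0.32), and of Egr3, a zinc finger transcription factor induced by growth factors, at 1.73 (SE 0.23). The order rests on the weights: E430002G05Rik, at 1.68 in that fit, came next to Padi4 by the plain difference of means, at 1.85 against 1.72 for Lrtm2 and 1.70 for Egr3.

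**Figure D1:**
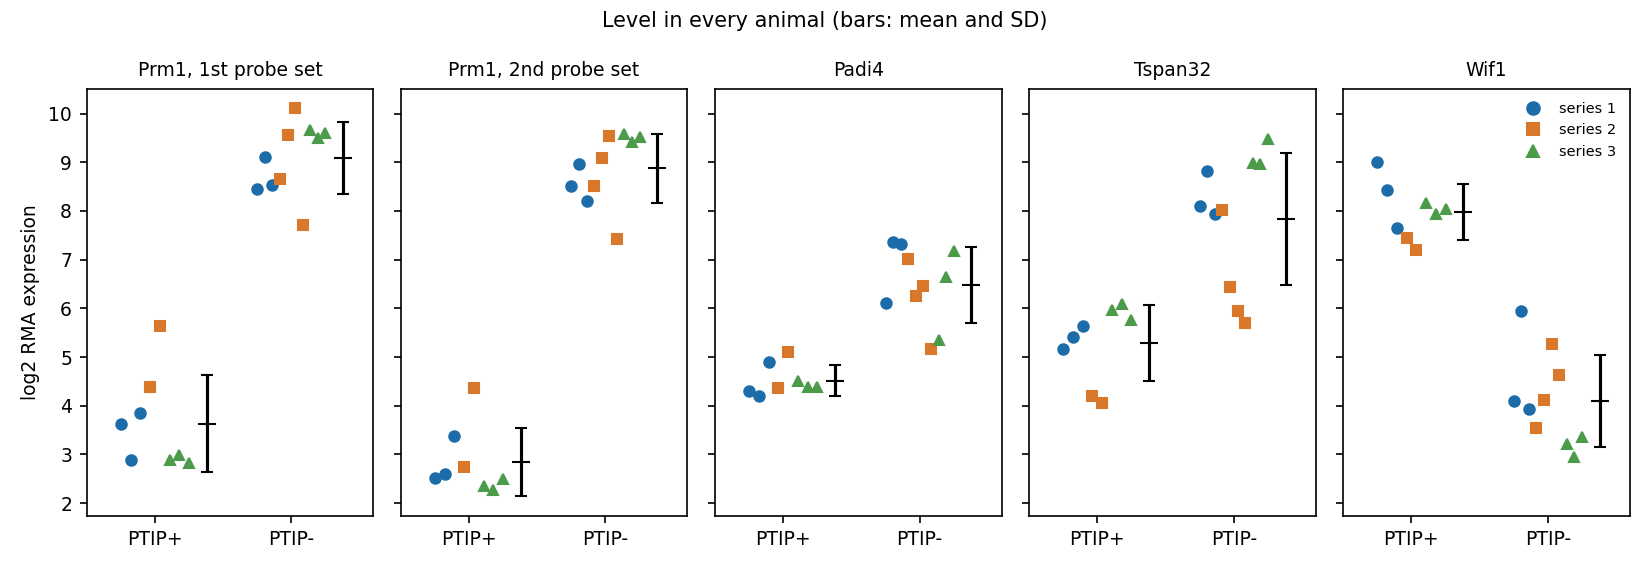
Log2 RMA expression of the Prm1 probe sets (1st: 1437054_x_at, 2nd: 1439379_x_at), Padi4, Tspan32 and Wif1 in each of 8 PTIP+ and 10 PTIP- animals, with the mean and SD of each genotype as a black bar; colour and shape give the animal number series. The genotypes overlap for Tspan32, where the 2 lowest PTIP+ and the 3 lowest PTIP- animals are of series 2, and for none of the others shown.

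The gain of each PTIP- animal over the PTIP+ mean of its own series was set beside the levels, by which the same animal could be high in 1 gene and low in another. Replicate 8 had Prm1 gains of 6.77 for 1437054_x_at and 7.21 for 1439379_x_at, and the second smallest gain of Padi4, 0.93. Replicate 4 had the largest gain of Tspan32, 3.88, and Prm1 gains of 3.64 and 4.97. Replicate 2 had the largest gain of Padi4, 2.90. Replicate 7 had the lowest level of all 3 genes, with a gain of 2.71 and 3.87 for Prm1, 0.44 for Padi4 and 1.58 for Tspan32. The Prm1 gains are set in part by the PTIP+ means, which for 1437054_x_at were 3.46, 5.01 and 2.90 in series 1, 2 and 3. The lowest of them are near the floor, and that of series 2 rests on 2 animals, so the Prm1 gains are not ranked between series. By the Prm1 level itself replicate 6 was highest, at 9.83, replicate 8 second, at 9.63, and replicate 4 seventh, at 8.59. Replicate 6 had a Tspan32 of 5.95, the second lowest, and replicate 8 had the second lowest Padi4.

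Whether the size of the gain differed between series was tested by limma with array weights, as an F test of the genotype by series terms. P-values were adjusted by Benjamini-Hochberg, and of the 58 probe sets 15.5% (9) passed an adjusted p of 0.05. Both Prm1 probe sets were among them, while Padi4 (adjusted p = 0.706) and Tspan32 (adjusted p = 0.395) were not. With 1 animal left out, the count of 9 ran from 3 (without PTIP+ replicate 7) to 10. For series 1, 2 and 3 in turn, the mean difference of Padi4 was 2.46, 1.50 and 1.97, and that of Tspan32 was 2.88, 2.40 and 3.20. The outcome rests on how arrays are weighted. In limma without array weights 0 of the 58 probe sets passed, with 14 at an unadjusted p under 0.05, and the adjusted p of Prm1 was 0.074 for 1437054_x_at and 0.178 for 1439379_x_at. With arrays centred on their median over the 58 probe sets, limma gave Tspan32 an adjusted p of 0.0261. These probe sets were chosen for a genotype difference, so the median itself differs by genotype, unevenly over series. In series 3 it was 6.78 to 7.06 in PTIP+ and 5.92 to 6.19 in PTIP- animals. In series 2 it was 6.29 to 6.32 in PTIP+ and 5.93 to 6.40 in PTIP- animals. Centring thus adds a difference between series to every gain, and nothing is read from 0.0261. Without centring and without PTIP+ replicate 7, limma gave 1439379_x_at an adjusted p of 0.0539. Of the variance within genotypes, 80.5% lay between series for Tspan32, 58.0% and 42.2% for the Prm1 probe sets and 16.4% for Padi4, where the median of the 58 probe sets was 58.2%.

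**Figure D2:**
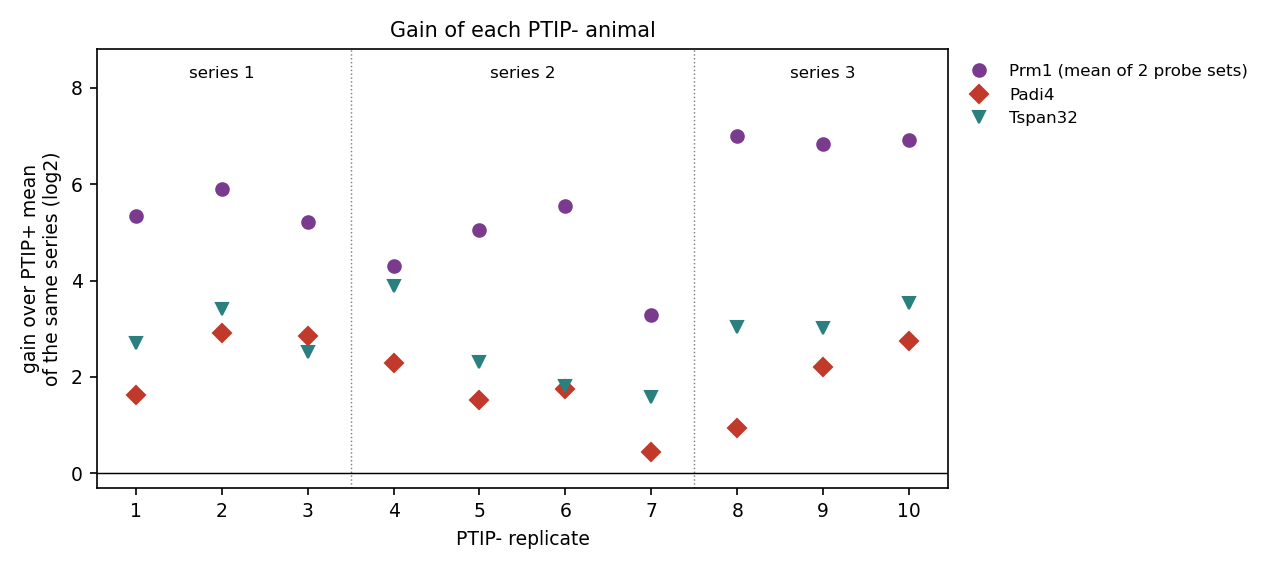
Gain of each of the 10 PTIP- animals over the PTIP+ mean of its animal number series, in log2 units, for Prm1 (mean of its 2 probe sets), Padi4 and Tspan32; dotted lines separate the series. Replicate 7 has the smallest gain of Padi4 and of Tspan32, and replicate 8 has a Padi4 gain of 0.93. The lowest PTIP+ means of Prm1 are near the floor, so its gains are not ranked between series.

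Covariation was measured over the 10 PTIP- animals as 7 relations, with Prm1 as the mean of its 2 probe sets, two-sided permutation tests and Benjamini-Hochberg adjustment over the 7. The 2 Prm1 probe sets followed each other closely: they correlated with Pearson r = 0.96 (permutation p = 2e-05, adjusted p = 0.00014) and Spearman rho = 0.96 (permutation p = 2e-05). Without the 2 animals farthest from the median r was 0.93, and for deviations from the series means it was 0.98 (exact permutation p = 0.00579, adjusted p = 0.0405). So the spread of Prm1 among PTIP- animals is larger than the disagreement between its probe sets. Padi4 and Tspan32 have 1 probe set each, so the same could not be asked of them.

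No such covariation was found between the genes. Prm1 and Padi4 had r = 0.20 (permutation p = 0.572, adjusted p = 0.743) and rho = 0.018 (permutation p = 0.972). Prm1 and Tspan32 had r = 0.34 (permutation p = 0.337, adjusted p = 0.590) and rho = 0.42 (permutation p = 0.233). Both positive values rest on PTIP- replicate 7, the animal low in all 3 genes: without it r was -0.36 for Prm1 and Padi4 and -0.077 for Prm1 and Tspan32. Other omissions raised them. Without replicate 8 r was 0.45 for Prm1 and Padi4 (adjusted exact permutation p = 0.519), and without replicate 6 it was 0.69 for Prm1 and Tspan32 (adjusted exact permutation p = 0.14). Without the 2 animals farthest from the median of Prm1 the values were -0.20 and -0.12.

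Padi4 and Tspan32 had r = 0.43 (permutation p = 0.205, adjusted p = 0.479) and rho = 0.31 (permutation p = 0.388), with r = 0.54 without the 2 animals farthest from the median of Padi4. The value over 10 animals too rests in part on replicate 7, without which r was 0.16, and without replicate 8 it was 0.71 (adjusted exact permutation p = 0.105). With 3 or 4 PTIP- animals a series holds too few for a value of its own, so deviations from the series means were correlated over the 10 animals, with values permuted within series. These gave r = 0.60 for Padi4 and Tspan32 (exact permutation p = 0.088, adjusted p = 0.308), 0.39 for Prm1 and Padi4 (exact permutation p = 0.338, adjusted p = 0.591) and 0.11 for Prm1 and Tspan32 (exact permutation p = 0.830, adjusted p = 0.954). For the gains over the PTIP+ mean of the same series, r was 0.61, 0.37 and 0.45 for these pairs, given without a test because the means of the same PTIP+ animals enter both genes of a pair. With 10 animals a moderate relation can be missed, so these values do not show that the gains are independent.

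**Figure D3:**
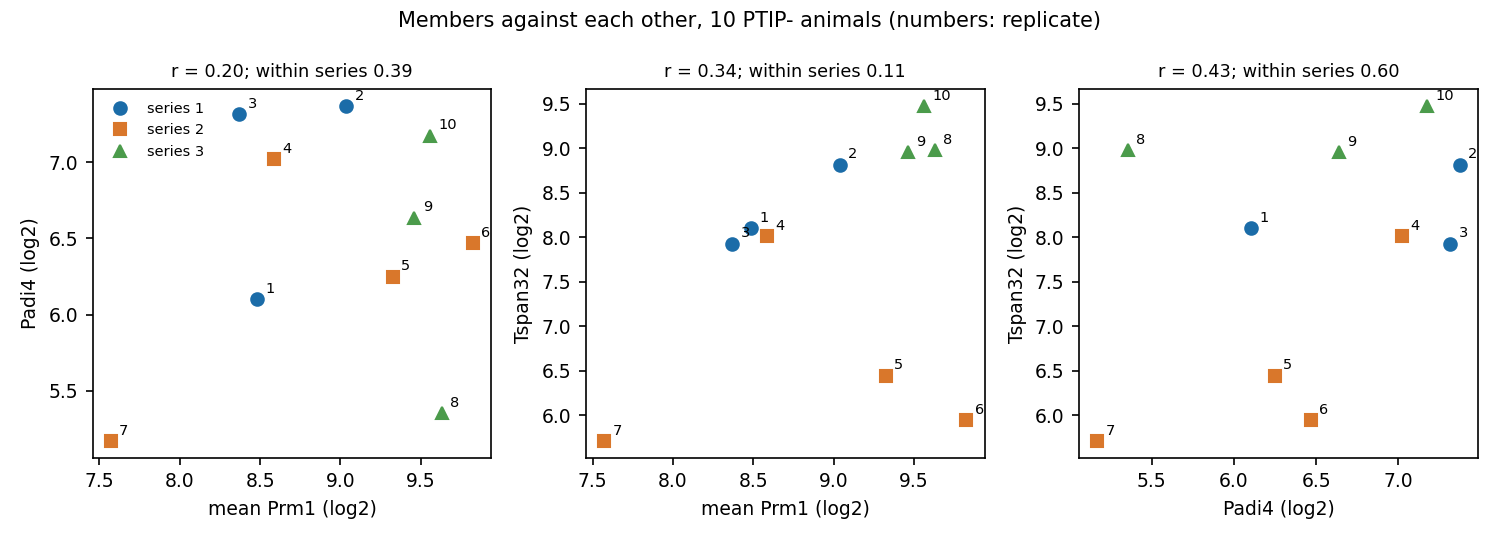
Pairs of members in the 10 PTIP- animals, in log2 units, with Prm1 as the mean of its 2 probe sets; numbers are replicates, colour and shape give the series, and each panel states r over the 10 animals and r of deviations from the series means. Replicate 7 is low in all 3 genes, and replicate 6 combines the highest Prm1 with the second lowest Tspan32.

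**Figure D4:**
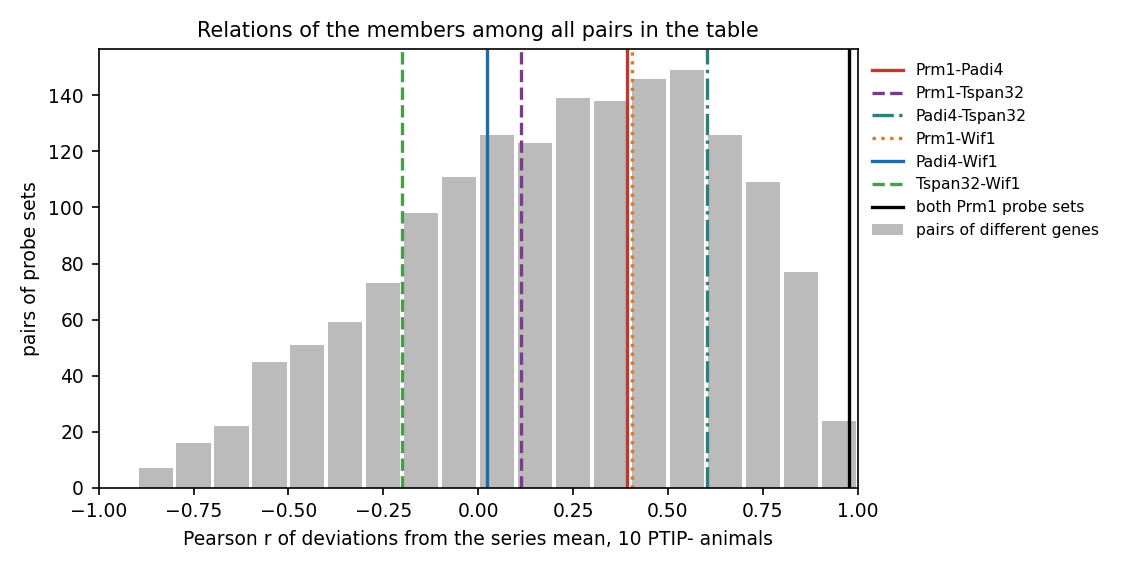
Pearson r of deviations from the series means over the 10 PTIP- animals for all 1639 pairs of probe sets of different genes (grey bars, number of pairs in each interval of r), with the 7 relations tested as vertical lines. The relations between genes lie inside the bulk of the pairs, and that of the Prm1 probe sets, at 0.98, lies at the upper end.

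Set beside all 1639 pairs of probe sets of different genes, for deviations from the series means, the pairs of members are not unusual. The median r of all those pairs was 0.27, with 10% of pairs below -0.36 and 10% above 0.75. For the 188 pairs in which both probe sets were increased the median was 0.30. For the 14 pairs of probe sets of 1 gene it was 0.56, with a 10th percentile of -0.36. Readings of 1 gene thus often agreed less than those of Prm1, and a low r between genes can also come from the reading. The pairs are not independent of each other, since they share the same 10 animals.

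The residual Wif1 signal, read by 1425425_a_at, ran from 2.95 in replicate 9 to 5.94 in replicate 2 among PTIP- animals, with a median of 4.02, against 7.19 to 9.00 and a median of 7.99 in PTIP+ animals. The low end is near the floor, where 1% of all values of the table lie below 2.91, so differences among the animals of least Wif1 are compressed in the relations below. If gain mirrored loss, animals with the least Wif1 would have the most of each member. Such a relation was not found for Prm1, with r = -0.14 (permutation p = 0.690, adjusted p = 0.743) and rho = -0.24 (permutation p = 0.515), nor for Padi4, with r = 0.12 (permutation p = 0.743, adjusted p = 0.743) and rho = 0.042 (permutation p = 0.918). For Tspan32 the values pointed that way without passing the threshold, with r = -0.45 (permutation p = 0.188, adjusted p = 0.479) and rho = -0.65 (permutation p = 0.0483, adjusted p = 0.169). With each gene taken relative to the PTIP+ mean of the same series, r with Wif1 was -0.55 for Prm1, -0.47 for Tspan32 and -0.17 for Padi4. These 3 values are no test of a mirror, since they also hold the differences between the PTIP+ means of the series, in which Prm1 1437054_x_at was highest, at 5.01, and Wif1 lowest, at 7.32, in series 2.

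The relation to Wif1 depends on 1 or 2 animals. Without PTIP- replicate 2, which had the highest Wif1 and a high Tspan32 of 8.82, r for Tspan32 was -0.89 (exact permutation p = 0.000998, adjusted p = 0.00349). Without the 2 animals farthest from the median of Wif1, replicates 2 and 6, r was -0.88 for Tspan32 (exact permutation p = 0.00308, adjusted p = 0.0108), -0.80 for Prm1 (exact permutation p = 0.0156, adjusted p = 0.0365) and -0.35 for Padi4 (exact permutation p = 0.385, adjusted p = 0.538). The series differed in both genes: the series 3 animals had Wif1 from 2.95 to 3.36 and Tspan32 from 8.96 to 9.48, while all but 1 of the series 2 animals had Wif1 from 4.11 to 5.28 and Tspan32 from 5.71 to 6.45. For deviations from the series means r was -0.20 for Tspan32 (exact permutation p = 0.659, adjusted p = 0.922), 0.40 for Prm1 (exact permutation p = 0.337, adjusted p = 0.591) and 0.023 for Padi4 (exact permutation p = 0.954, adjusted p = 0.954). Those values include replicate 2. For the same 9 animals that gave -0.89, deviations from the series means gave -0.75 for Tspan32 (exact permutation p = 0.215), 0.31 for Prm1 (exact permutation p = 0.694) and -0.27 for Padi4 (exact permutation p = 0.580), a setting added after the values had been seen.

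**Figure D5:**
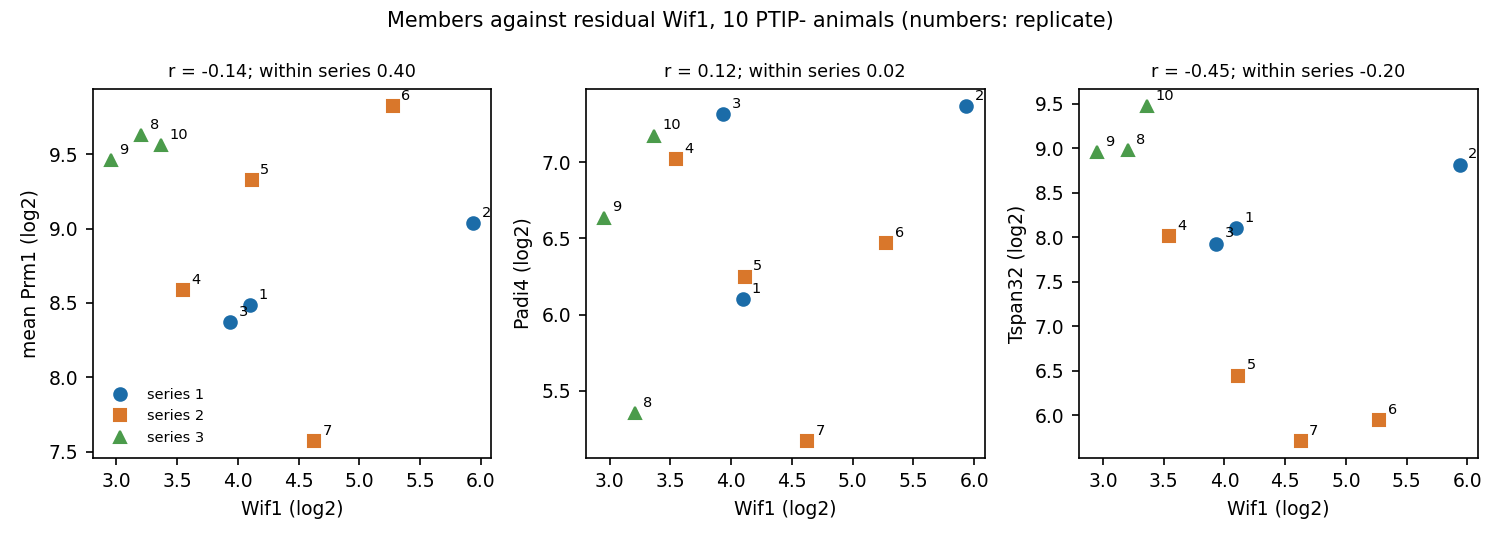
Prm1 (mean of its 2 probe sets), Padi4 and Tspan32 against Wif1 in the 10 PTIP- animals, in log2 units; numbers are replicates, colour and shape give the series, and each panel states r over the 10 animals and r of deviations from the series means. Replicate 2, at a Wif1 of 5.94, is farthest to the right, and without it Tspan32 falls with Wif1 at r = -0.89.

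Residual Wif1 also followed the median of the other selected probe sets. That median is no measure of the array as a whole, since these probe sets were chosen for a difference between genotypes and most were lower in PTIP- animals: it ran from 6.34 to 7.25 in PTIP+ and from 5.91 to 6.61 in PTIP- animals. Over the PTIP- arrays Wif1 correlated with the median of the 53 probe sets outside the members and Wif1 at r = 0.84 (permutation p = 0.00266, adjusted p = 0.0106 over 4 relations added after the values had been seen) and rho = 0.85 (permutation p = 0.00285). Without the 2 arrays farthest from the median it was 0.48, and for deviations from the series means 0.79 (exact permutation p = 0.0868, adjusted p = 0.174). Replicate 2 had the highest such median, 6.61, against 5.91 to 6.37 for the others, and it was the PTIP- animal nearest to PTIP+ for 18 of the 58 probe sets, followed by replicate 6 with 14 and replicate 7 with 11, where an even share is 5.8. Among PTIP+ animals, replicates 4 and 5, both of series 2, were nearest to PTIP- for 15 probe sets each, where an even share is 7.25. For the members the r with the median of the 53 probe sets over PTIP- arrays was 0.19 for Prm1 (permutation p = 0.598), 0.32 for Padi4 (permutation p = 0.364) and -0.17 for Tspan32 (permutation p = 0.633), each with an adjusted p of 0.633. For deviations from the series means Prm1 had 0.71 (exact permutation p = 0.0301, adjusted p = 0.120). The part of this median in the relations between the genes was not tested. Centring the arrays on their median over the 58 probe sets gave r = -0.66 for Wif1 and Tspan32 (permutation p = 0.0355, adjusted p = 0.124). It gave -0.42 for Wif1 and Prm1 (permutation p = 0.210, adjusted p = 0.373). Since Wif1 follows such a median, centring changes Wif1 itself, and these values cannot decide that part. For the members centring gave r = 0.035 for Prm1 and Padi4, 0.35 for Prm1 and Tspan32 and 0.43 for Padi4 and Tspan32.

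The same relations were measured among the low signals of the 8 PTIP+ animals, where those of Prm1 include the lowest of the table, and no difference between the genotypes in a relation was tested. Prm1 and Tspan32 had r = -0.81 (exact permutation p = 0.0120, adjusted p = 0.0470 over the 7 relations in PTIP+ animals) and rho = -0.83 (exact permutation p = 0.0154, adjusted p = 0.108), and r = -0.97 without the 2 animals farthest from the median of Prm1. Without replicate 5 it was -0.67 (adjusted exact permutation p = 0.465), and with 1439379_x_at alone -0.66 (adjusted exact permutation p = 0.113). That relation lay between series, since for deviations from the series means r was 0.049 (exact permutation p = 0.847). Prm1 and Padi4 had r = 0.82 (exact permutation p = 0.0219, adjusted p = 0.0510) and rho = 0.26 (exact permutation p = 0.536). It rests on replicates 3 and 5, the farthest from the median of Prm1, without which r was -0.18. For deviations from the series means it was 0.95 (exact permutation p = 0.0833, where 0.0139 is the smallest that permutation within series can give). The Prm1 probe sets had r = 0.88 in PTIP+ animals (exact permutation p = 0.0134, adjusted p = 0.0470) and rho = 0.69 (exact permutation p = 0.0694), with 0.84 for deviations from the series means (exact permutation p = 0.333), 0.74 without the 2 farthest animals and 0.60 without replicate 5. Padi4 and Tspan32, and each of the 3 members with Wif1, did not pass, with adjusted exact permutation p-values from 0.0994 to 0.417.

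PTIP+ replicate 5 and PTIP- replicate 7, both of series 2, carry the same animal number in their scan names. They are different arrays, with a largest difference of 4.30 in any probe set. PTIP+ replicate 5 had the highest Prm1 of its genotype, 5.64 and 4.36, the highest Padi4, 5.09, and the lowest Wif1, 7.19, but also the lowest Tspan32, 4.06. PTIP- replicate 7 had the lowest Prm1 of its genotype, 7.72 and 7.42, the lowest Padi4, 5.17, and the lowest Tspan32, 5.71, while its Wif1 of 4.63 was the third highest. What the shared number means was not tested. Without both arrays the log2 differences were 5.88 and 6.35 for the Prm1 probe sets, 2.20 for Padi4 and 2.68 for Tspan32.

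The probe sets most like each member were sought over the 18 animals after subtracting the mean of each genotype within each series. Prm1 was most like Egr3 (r = 0.73) and the probe set 1457780_at of Stx11, a syntaxin of cytotoxic immune cells (r = 0.70), both higher in PTIP- animals. It was least like Itga2, an integrin subunit of the collagen receptor (r = -0.43), and Myl7, an atrial myosin light chain (r = -0.31). Padi4 was most like 1457125_at, which has no symbol (r = 0.66), and 2410004P03Rik (r = 0.65), and least like the Ntrk3 probe set 1455917_at (r = -0.40) and 1459989_at (r = -0.38). Ntrk3 encodes a neurotrophin receptor. Tspan32 was most like Lrtm2 (r = 0.80), which was higher in PTIP- animals, and Aff3 (r = 0.77), which was lower in them, and least like the same probe sets as Padi4, Ntrk3 1455917_at (r = -0.76) and 1459989_at (r = -0.73). These values are the ends of an ordered list and are given without a test. The median r over the other probe sets was 0.29 for Prm1, 0.29 for Padi4 and 0.28 for Tspan32. No member was among the 2 most like or least like of another.

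The members do not lie together in the genome: they are on chromosomes 16, 4 and 7, and Wif1 is on chromosome 10. In the RefSeq gene table Prm1 lies beside Prm3 and beside Prm2 and Tnp2, of which the last 2 also serve the packing of sperm DNA. Padi4 lies beside Padi1, Padi2, Padi3 and Padi6. Of the 8 nearest protein-coding genes of each member, 0 have a row in the table. Of 14 genes of spermatids and testis that were looked up, such as Prm2, Tnp1 and Tnp2, 0 have a row, and so do 0 of 14 leukocyte genes, 0 of 8 red cell and platelet genes and 0 of the 4 other peptidylarginine deiminases. The only tetraspanin in the table is Tspan32. Of 13 Wnt signalling genes and 10 genes of the methyltransferase complex, Paxip1 included, 0 have a row. The table holds selected probe sets, so a gene without a row was not analysed here and may have been measured at any level.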

How the data were processed

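Glomerular RNA of 8 PTIP+ and 10 PTIP- mice was hybridised to Affymetrix mouse arrays. RMA normalization was done by the authors, and log2 values were deposited for the 58 probe sets that passed their filters. The table's columns of t-statistics, p-values and fold changes hold the authors' own comparison and were not used. All 18 columns were mapped to animals by title. The members and the lists of genes were chosen with earlier results of these data known.

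The log2 values were used as deposited. Differences and the genotype by series interaction were fitted to all 58 probe sets with limma 3.58.1 in R 4.3.3 (lmFit, arrayWeights, eBayes), after the study's weighted linear models. Correlations used Python 3.11.15 with numpy 2.4.6 and scipy 1.17.1: all permutations were enumerated for fewer than 10 animals or within series (864 arrangements for PTIP-, 72 for PTIP+), and 100000 were drawn for 10 animals. All tests of correlation were two-sided, with a threshold of 0.05 after Benjamini-Hochberg adjustment. The fits and permutation tests were tested on simulated data. Arrays give no count of molecules, so the number of animals limits the precision. Permutation within series cannot give a p below 0.00116 in PTIP- and 0.0139 in PTIP+ animals.

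Named besides the members were Wif1, the 2 probe sets most and the 2 least like each member, and the 2 next largest increases. Alternatives were no array weights, series or replicate number as a block, centred arrays, medians, a robust and trended prior, Spearman's rho, each Prm1 probe set, gains over the same series, each animal left out, and the arrays sharing a number left out. Relations to the array median, in the 7 animals of higher Tspan32, and within series without replicate 2 were added after the data were seen. Promoter sequences are from RefSeq (GRCm38.p6), and motifs were searched on both strands.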

Additional observations from a re-analysis of the deposited data

Results flagged for a closer look

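The genotype difference of 9 of the 58 probe sets (15.5%) differed between the animal number series in limma's interaction test with array weights, among them both Prm1 probe sets and Wif1. The adjusted p was 0.00221 for Prm1 1437054_x_at, 0.0123 for Prm1 1439379_x_at and 0.0473 for Wif1. Without array weights none of the 58 probe sets passed, with 14 at an unadjusted p under 0.05 in limma. With array weights and 1 animal left out, the count ran from 3 (without PTIP+ replicate 7) to 10. For series 1, 2 and 3 in turn, the mean difference of 1437054_x_at was 5.24, 4.00 and 6.70. That of 1439379_x_at was 5.73, 5.09 and 7.13, and that of Wif1 was -3.71, -2.93 and -4.87. Every PTIP- animal was on the same side of every PTIP+ animal of its series for these probe sets. The smallest Prm1 difference, in series 2, goes with the highest PTIP+ mean, for 1437054_x_at 5.01 from 2 animals against 3.46 and 2.90 near the floor, while its PTIP- mean there, 9.01, was above the 8.69 of series 1. The cause was not tested.

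By Dixon's criterion no animal stood apart from its genotype for the members or Wif1. The largest gap was that of PTIP+ replicate 5 for 1439379_x_at, 0.467 of the range, under the critical value for 8 animals.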

How the results depend on the processing

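The log2 differences of the members kept their direction and moved by less than the SD within genotypes under every alternative run. With the replicate number as a block over replicates 1 to 8 (replicate block) they were 5.23 and 5.84 for the Prm1 probe sets, 1.84 for Padi4 and 2.51 for Tspan32. Replicate numbers were not taken to pair the animals, which asks for a correlation of deviations above 0.1 in every pair: 5 of 8 pairs, each within a series, had 0.37 to 0.62, and the others -0.0075, -0.19 and -0.35. The number of probe sets without overlap stayed between 15 and 20.

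The count of probe sets whose difference varied between series was 9, and 0 without array weights. With 1 animal left out it ran from 3 (PTIP+ replicate 7) to 10. It was 4 without PTIP+ replicate 2 or PTIP- replicate 1, and 5 without PTIP+ replicate 6 or 8 or PTIP- replicate 3, 9 or 10. Each refit has fewer animals, and the cause was not tested further.

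Among PTIP- animals the r of the Prm1 probe sets ran from 0.93 (without the 2 farthest animals) to 0.98 and was past the threshold in each setting run, as it was over all 18 animals within genotype and series. The other relations changed as follows, and the causes were not tested.
For deviations from the series means r of Wif1 and Prm1 was 0.40, and 0.31 without replicate 2, where Wif1 and Padi4 had -0.27. Over all 18 animals within genotype and series, r with Wif1 was 0.18 for Prm1 and -0.079 for Padi4. Wif1 and Padi4 had -0.29 with centred arrays and -0.17 for gains. Without the 2 farthest animals r was -0.20 for Prm1 and Padi4, -0.12 for Prm1 and Tspan32, and with Wif1 -0.80 for Prm1, -0.35 for Padi4 and -0.88 for Tspan32. Among the 7 animals of higher Tspan32, picked on that outcome and so no test, its r was 0.94 with Prm1, -0.10 with Padi4 and -0.15 with Wif1, and 0.84, 0.48 and 0.91 for deviations from the series means.

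With each PTIP- animal left out in turn, r ran from -0.36 (without replicate 7) to 0.45 for Prm1 and Padi4, from -0.077 (without replicate 7) to 0.69 for Prm1 and Tspan32, and from 0.16 (without replicate 7) to 0.71 (without replicate 8) for Padi4 and Tspan32. With Wif1 it ran from -0.40 to -0.013 for Prm1, from -0.22 (without replicate 2; -0.060 without replicate 8) to 0.30 for Padi4, and for Tspan32 from -0.89 (without replicate 2) to -0.30. For the Prm1 probe sets it ran from 0.94 to 0.97.

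Among PTIP+ animals r for deviations from the series means was 0.049 for Prm1 and Tspan32, 0.30 for Padi4 and Tspan32, -0.76 for Wif1 and Tspan32 and 0.84 for the Prm1 probe sets, none past the threshold. Spearman's rho was -0.83 for Prm1 and Tspan32, 0.071 for Padi4 and Tspan32 and 0.69 for the Prm1 probe sets, none past it after adjustment. Prm1 and Tspan32 had -0.66 with 1439379_x_at alone. With centred arrays Prm1 and Padi4 had 0.96, now past the threshold, and Wif1 and Tspan32 -0.016. Without the 2 farthest animals Prm1 and Padi4 had -0.18, Padi4 and Tspan32 0.33 and the Prm1 probe sets 0.74.

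With each PTIP+ animal left out in turn, r ran from 0.52 to 0.88 for Prm1 and Padi4, past the threshold without replicate 4. It ran from -0.89 to -0.67 for Prm1 and Tspan32 and from 0.60 to 0.95 for the Prm1 probe sets, both with adjusted exact permutation p-values up to 0.465 (without replicate 5) and past the threshold without replicate 1 or 3 and, for the probe sets, 4. It ran from -0.57 to 0.25 (without replicate 5) for Padi4 and Tspan32. With Wif1 it ran from -0.88 (past the threshold, without replicate 1) to -0.44 for Prm1, from -0.83 (past the threshold, without replicate 4) to -0.48 for Padi4, and for Tspan32 from 0.18 to 0.75.

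The array floor limits Prm1 in PTIP+ animals and Wif1 in PTIP- animals of series 3, whose differences are compressed.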
